A study of Mus musculus with 8 samples.

Results

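The genes of the proteasome, the protease complex that degrades ubiquitin-tagged proteins, were followed in J1 mouse embryonic stem (ES) cells in which Zscan4 was knocked down or overexpressed. Members were the protein-coding genes whose symbol starts with Psma, Psmb, Psmc, Psmd, Psme, Psmf or Psmg and a number, without the immunoproteasome genes Psmb8, Psmb9 and Psmb10. The annotation held 47 such genes, and 45 of them had a value among the 18821 genes measured in either arm, each in both arms. Psmb11, the thymus form of a catalytic subunit, and Psme2b, an intronless copy of Psme2, were not analysed here. The 45 comprised 7 alpha and 7 beta subunits of the core particle, 6 ATPases and 3 other subunits of the base, 8 subunits of the lid, 4 activators, the regulator Psmf1, 7 assembly factors, the germ cell alpha subunit Psma8, and Psmc3ip. Psmc3ip carries a proteasome-like symbol but is a meiotic recombination factor, so it is counted on its own and is no proteasome subunit.

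RNA was sequenced from 8 libraries in 4 groups of 2. KD Zscan4 cells were transfected with an shRNA against Zscan4 in the pSuper puro vector, and KD control cells with a random control. OE Zscan4 cells received the coding sequence of Zscan4c in the pCMV-tag2 vector, which carries a cytomegalovirus promoter, and OE control cells its control. All groups were J1 cells of the strain labelled 12910la, grown on gelatin in 15% serum with 10 ng/ml LIF, the cytokine that keeps ES cells undifferentiated. Cells were given 1000 ng of plasmid and were put under drug 24 h later, with 2 µg/ml puromycin for 7 days in the knockdown arm and 500 µg/ml G418 for 10 days in the overexpression arm, after which single clones were picked. Whether the libraries of one group were made from different clones is not stated in the labels, and the tests therefore weigh only the spread between these libraries, which may be technical.

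The proteasome is a barrel capped at its ends. The barrel, or core particle, stacks rings of alpha subunits, which gate the entry, on rings of beta subunits, of which Psmb5, Psmb6 and Psmb7 carry the chymotrypsin-like, caspase-like and trypsin-like sites. The cap, or regulatory particle, has a base whose ATPases unfold substrates and a lid that removes ubiquitin. Other activators can take the place of this cap and open the gate without ATP, and dedicated chaperones put both parts together. The transcription factor Nfe2l1 is known to raise the genes of the whole complex when the proteasome is inhibited. In human ES cells the lid subunit PSMD11 is known for its high level and for a link to proteasome activity, and mouse ES cells are known to induce the activators Psme1 and Psme2 upon differentiation.

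Values are normalised reads, that is, reads of a gene divided by one factor per library, and the libraries held 17.4 to 22.4 M reads. Between libraries of one group the counts differed by more than counting noise (chi-square per degree of freedom 2.94 to 4.96), so each library counted as 1 sample. Log2 fold changes are those of value + 1, the Zscan4 group minus its control, and gene coordinates refer to mm10. The targeted gene went with the labels: the summed value of 9 Zscan4 genes was 97.4 and 136 in KD Zscan4, against 3752 and 3336 in KD control, and 5878 and 5311 in OE Zscan4, against 360.4 and 389 in OE control. All 10 ES cell markers were measured, with sums of 125990 to 130851 in KD Zscan4, against 121136 to 121937 in KD control, and of 144876 to 146135 in OE Zscan4, against 106306 to 109303 in OE control. Of the 10, 4 rose and 2 fell in the knockdown, and 7 rose and 1 fell in the overexpression. All 8 primitive endoderm markers fell in the knockdown, with sums of 269.8 to 303 in KD Zscan4, against 2467 to 2586 in KD control, and 5 of 7 fell in the overexpression, with 314 to 323 in OE Zscan4, against 526 to 555 in OE control. Sums of 7 fibroblast markers were 14109 to 15122 in KD Zscan4, against 11663 to 11984 in KD control. Sums of 6 of them were 10860.4 to 11042 in OE Zscan4, against 12632 to 12776 in OE control. Of these fibroblast markers, 3 of 7 rose and 1 fell in the knockdown, and 1 of 6 rose and 4 fell in the overexpression. Trophectoderm markers fell in 3 of 5 cases in the knockdown and 2 of 4 in the overexpression, none rose, and the sums of 3 immune markers stayed between 118 and 176 in all libraries. Of the immune markers 1 rose and 1 fell in the knockdown, and 1 fell in the overexpression. Further markers, among them Ptprc, Adgre1 and the fibroblast marker Dcn, were not analysed here. In bulk RNA, fewer cells of a type and less RNA per cell cannot be told apart. The part of these cell type differences in the proteasome values was not tested.

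The control libraries stood apart in the output of 2 autosomes. Chromosome 1 held 6.97% and 7.10% of protein-coding reads in KD Zscan4, against 5.01% and 5.01% in KD control, and the other 4 libraries held 6.98% to 7.34%. Chromosome 11 held 9.66% and 9.65% in OE Zscan4, against 11.75% and 11.75% in OE control, and the other 4 libraries held 9.86% to 10.17%. Chromosome medians were taken over protein-coding genes with a mean value of at least 20. The median log2 fold change on chromosome 1 was 0.56 in the knockdown (703 genes), and that on chromosome 11 was -0.34 in the overexpression (1087 genes). For the 17 remaining autosomes the medians ran between -0.069 and 0.024 in the knockdown, and in the overexpression between -0.010 and 0.092. On chromosome X they were 0.016 and 0.054. Chromosome Y, with 5 such genes and no member, had medians of -2.20 in the knockdown and -6.02 in the overexpression. The mitochondrial genome, with 13 such genes and no member, had 0.18 and 0.43. The cause of these shifts was not tested. Of the 45 genes, Psmd1 lies on chromosome 1, and 9 lie on chromosome 11, namely Psmb3, Psmb6, Psmc5, Psmd3, Psmd11, Psmd12, Psme3, Psme4 and Psmc3ip. For genes on the chromosome shifted in a comparison, values after centring each library on the median of its chromosome are given as well.

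The knockdown comparison asks which proteasome transcripts differ when Zscan4 is depleted. In KD Zscan4, 16 of the 45 genes rose (35.6%) and 2 fell (4.44%), and 27 did not pass the test at a false discovery rate of 0.05. Among all 17938 genes tested, 35.7% passed, 17.2% rising and 18.5% falling, and among protein-coding genes at or above the level of the lowest member 47.7% passed, 20.8% rising and 26.9% falling. The changes were small: the median log2 fold change was 0.12, beside 0.0078 over all genes, and the members ranged from -0.28 for Psmd11 to 0.66 for Psmd1. Both KD Zscan4 libraries lay above both controls in 30 genes and below them in 5, and the groups overlapped in 10. Over all genes 34.0% lay above and 33.8% below. The core particle had 7 rises and no fall among 14 genes, the regulatory particle 4 rises and 2 falls among 17, and the activators 3 rises among 4. The count depended on single libraries: rises numbered 9 and 11 when KD control replicate 2 or replicate 1 was left out, and 12 and 20 when KD Zscan4 replicate 1 or replicate 2 was left out, and falls numbered 1 without either control and 3 without KD Zscan4 replicate 1. The 8 rises that held whichever library was left out were those of Psma1, Psma4, Psma5, Psmb3, Psmd1, Psme4, Psmd5 and Psmg4, and of the falls that of Psmd11 held. A group left with 1 library was assumed to vary like the others.

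**Figure D1:**
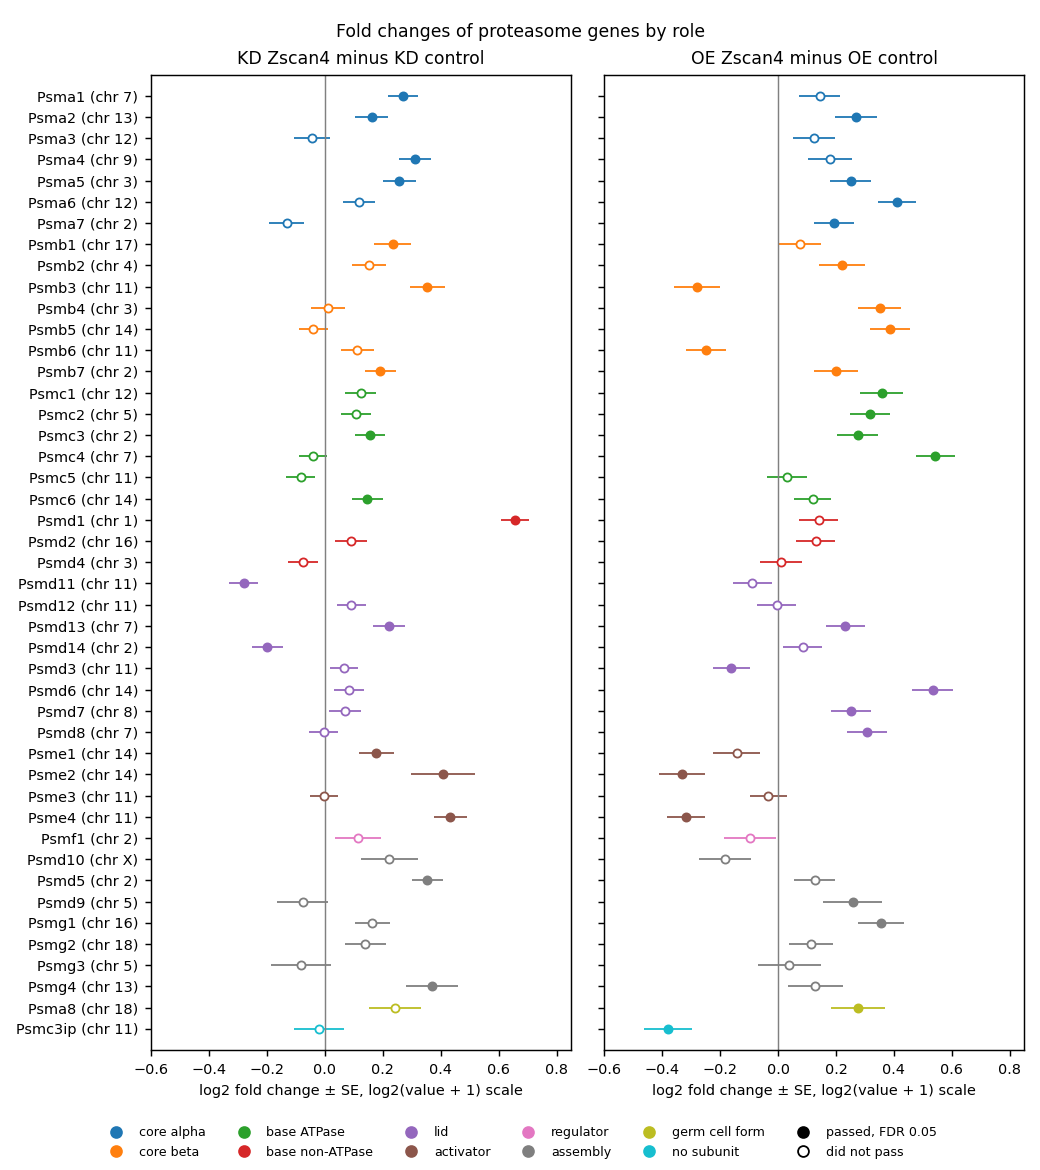
Log2 fold change with its SE for each of the 45 genes, ordered by role with the chromosome in brackets, for KD Zscan4 minus KD control (left) and OE Zscan4 minus OE control (right), n = 2 libraries per group. Filled points passed the limma test at a false discovery rate of 0.05: 16 rose and 2 fell on the left, 19 rose and 6 fell on the right. Activators lie to the right of 0 in the knockdown in 3 of 4 cases and to the left in all 4 cases in the overexpression.

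In the alpha ring, 4 of 7 subunits rose in the knockdown, namely Psma1, Psma2, Psma4 and Psma5, and none fell. Psma4 had the largest change of the ring, with 5807 and 5378 in KD Zscan4, against 4636 and 4380.0 in KD control (log2 fold change 0.31, SE 0.056, adjusted p by limma = 0.001). Both libraries of KD Zscan4 were above both controls. Psma1 had 4349 and 4205 in KD Zscan4, against 3638 and 3456 in KD control (log2 fold change 0.27), and Psma5 had 4317 and 3914 in KD Zscan4, against 3458 and 3416 in KD control (log2 fold change 0.26). Psma2 passed at a log2 fold change of 0.16 (adjusted p = 0.0404) but did not when either KD control library or KD Zscan4 replicate 1 was left out, with adjusted p-values of 0.0022 to 0.251 over all alternatives. Psma3 and Psma7 had negative log2 fold changes of -0.044 and -0.13 that did not pass, and Psma6 had 0.12, which did not pass either.

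In the beta ring, Psmb1, Psmb3 and Psmb7 rose in the knockdown. Psmb3, a beta subunit without a catalytic site (chromosome 11, 97703399 to 97713500), had 6304 and 5566 in KD Zscan4, against 4646 and 4620.3 in KD control (log2 fold change 0.35, SE 0.06, adjusted p by limma = 7.3e-04). The groups did not overlap, and the log2 fold change was 0.37 after centring on chromosome medians. The 3 catalytic subunits behaved unequally in this comparison, with only the trypsin-like one passing. Psmb7 had 5156 and 4833 in KD Zscan4, against 4313 and 4424 in KD control (log2 fold change 0.19, SE 0.052, adjusted p by limma = 0.013). It no longer passed when KD control replicate 1 was left out, at 0.17 (adjusted p = 0.108) or when KD control replicate 2 was, at 0.21 (adjusted p = 0.0593), both as log2 fold changes from limma. Psmb6, the caspase-like subunit, had 6502 and 5835 in KD Zscan4, against 5737 and 5652 in KD control, a log2 fold change of 0.11 (adjusted p = 0.148) that passed only without KD Zscan4 replicate 2, at 0.19 (adjusted p = 0.0039). Psmb5, the chymotrypsin-like subunit that most proteasome inhibitors bind, had 5435 and 5144 in KD Zscan4, against 5397 and 5471 in KD control, with overlapping groups and a log2 fold change of -0.039 (adjusted p = 0.585).

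Of the base, Psmc3, Psmc6 and Psmd1 rose in the knockdown. Psmd1, the large scaffold of the base (chromosome 1, 86064387 to 86139151), had the largest change of all 45 genes, with 9595 and 9449 in KD Zscan4, against 5983 and 6098 in KD control (log2 fold change 0.66, SE 0.047, adjusted p by limma = 9.3e-07). It is the single member on chromosome 1, whose genes had a median of 0.56, and after centring its log2 fold change was 0.11 (limma adjusted p = 0.0997). A change of Psmd1 of its own and the shift of its chromosome between these groups cannot be told apart. Psmd1 also shares exon bases with Gm21972 on its strand, so its reads may be split with that gene. The ATPases Psmc3 and Psmc6 had log2 fold changes of 0.16 (adjusted p = 0.036) and 0.15 (adjusted p = 0.047). Both calls were lost in DESeq2 and when either KD control library was left out, and that of Psmc6 also after centring at 0.13 (limma adjusted p = 0.0714). The call of Psmc3 was also lost without KD Zscan4 replicate 1, and that of Psmc6 without KD Zscan4 replicate 2. The other 4 ATPases lay between -0.083 and 0.12 without passing. The ubiquitin receptor Psmd4 (-0.074) and the scaffold Psmd2 (0.091) did not pass.

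Both falls of the knockdown were in the lid. Psmd11, which clamps the lid to the core particle (chromosome 11, 80428615 to 80473248), had 3329.5 and 3411 in KD Zscan4, against 4068 and 4114 in KD control (log2 fold change -0.28, SE 0.05, adjusted p by limma = 0.001). All KD Zscan4 values were below all control values, and the call held in every alternative computed, with adjusted p-values of 6.4e-05 to 0.0147. Psmd14, the deubiquitinase that strips ubiquitin chains from substrates (chromosome 2, 61711694 to 61800376), had 2309.7 and 2253 in KD Zscan4, against 2626 and 2607 in KD control (log2 fold change -0.20, SE 0.053, adjusted p by limma = 0.0117). Its groups did not overlap, but it no longer passed when KD control replicate 1 was left out, at -0.19 (adjusted p = 0.0773), when KD control replicate 2 was, at -0.20 (adjusted p = 0.0708), and after centring, at -0.13 (limma adjusted p = 0.0654). Psmd13 was the lid subunit that rose, at 0.22 (adjusted p = 0.0084), and the remaining 5 lid subunits lay between -0.0037 and 0.092 and did not pass.

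The activators had the highest median of any role in the knockdown, 0.29. Psme4, the large nuclear activator known in mouse testis for its part in the breakdown of acetylated histones (chromosome 11, 30771726 to 30880361), had 3687 and 4021 in KD Zscan4, against 2801 and 2903 in KD control (log2 fold change 0.43, SE 0.057, adjusted p by limma = 1.1e-04). Both KD Zscan4 libraries were above both controls, and the log2 fold change was 0.45 after centring. Psme1 and Psme2 form one ring-shaped activator that interferon induces. Psme2 (chromosome 14, 55587441 to 55591113) had 817 and 648 in KD Zscan4, against 594 and 505 in KD control (log2 fold change 0.41, SE 0.11, adjusted p by limma = 0.0121). Without KD Zscan4 replicate 1, the library at 817, the log2 fold change was 0.24 (adjusted p = 0.0706), and without KD control replicate 2 it was 0.29 (adjusted p = 0.0838). Reads of Psme2 can also be shared with its near-identical copy Psme2b on chromosome 11, so its value is less certain than those of single-copy members. Psme1 had 1417 and 1425 in KD Zscan4, against 1241 and 1269 in KD control, a log2 fold change of 0.18 (adjusted p by limma = 0.0327). The call of Psme1 was lost in 6 of 12 alternatives, DESeq2 and the leaving out of any single library among them. Psme3, a nuclear activator, had 5856 and 5758 in KD Zscan4, against 5716 and 5913 in KD control, with overlapping groups (-0.0017).

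Among assembly factors, Psmd5 and Psmg4 rose in the knockdown and 5 did not pass. Psmd5, a chaperone that holds ATPases of the base until they join (chromosome 2, 34849734 to 34874968), had 2805 and 2753 in KD Zscan4, against 2137 and 2212 in KD control (log2 fold change 0.35, SE 0.053, adjusted p by limma = 3.1e-04). Psmg4, a chaperone of the alpha ring (chromosome 13, 34162964 to 34178173), had 451 and 427 in KD Zscan4, against 349 and 329 in KD control (log2 fold change 0.37, SE 0.089, adjusted p by limma = 0.0065). Neither gene's groups overlapped, and both calls held in every alternative. Psmf1, an inhibitor of the core particle in vitro, had a log2 fold change of 0.11 (adjusted p = 0.297). Psma8, which replaces Psma7 in male germ cells, had 369 and 367 in KD Zscan4, against 312 and 310.0 in KD control, a log2 fold change of 0.24 (adjusted p = 0.0537) that passed when all 8 libraries were fitted together (0.24, adjusted p = 0.0387) and after centring (0.27, adjusted p = 0.0367). Psmc3ip had 545 and 477 in KD Zscan4, against 517 and 515 in KD control and did not pass (-0.018).

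**Figure D2:**
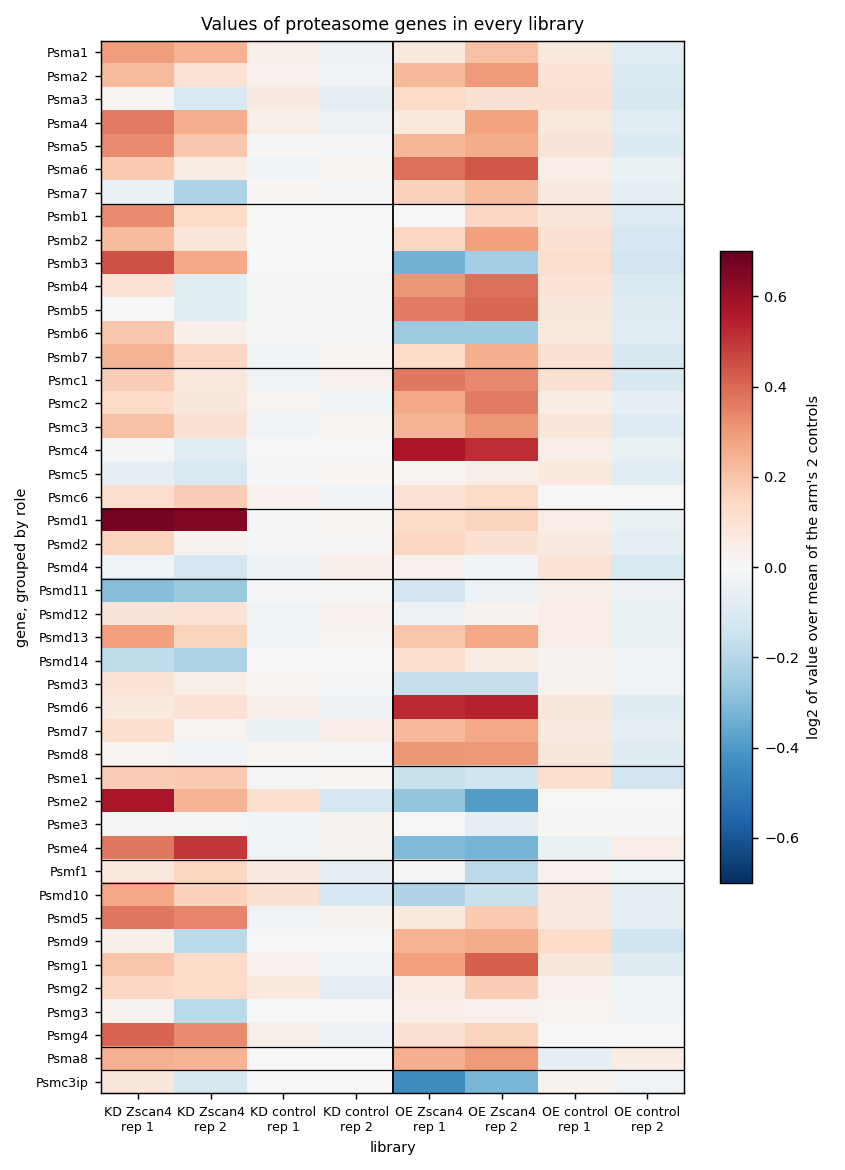
Each cell is the log2 of a gene's value in one library over the mean of the 2 control libraries of its arm, for 45 genes (rows, grouped by role) and 8 libraries (columns, KD Zscan4, KD control, OE Zscan4 and OE control). Psmd1 is the darkest row in KD Zscan4, and Psmc4 and Psmd6 are the darkest in OE Zscan4. OE control replicate 1 lies above replicate 2 in 41 of the 45 genes.

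The overexpression comparison asks which proteasome transcripts differ when Zscan4c is added. In OE Zscan4, 19 of the 45 genes rose (42.2%), 6 fell (13.3%) and 20 did not pass. Among all 18292 genes tested, 44.3% passed, 22.3% rising and 22.1% falling. Among protein-coding genes at or above the level of the lowest member 56.8% passed, 35.0% rising and 21.8% falling, so the members' share of rises is nearer to that of genes at their level than to that of all genes. The median log2 fold change was 0.13, beside -0.0022 over all genes and 0.076 over those protein-coding genes, and members ranged from -0.38 for Psmc3ip to 0.54 for Psmc4. Both OE Zscan4 libraries were above both controls in 29 genes and below them in 9, and the groups overlapped in 7. Over all genes 35.7% lay above and 35.5% below. Rises numbered 8 of 14 in the core particle and 8 of 17 in the regulatory particle, while no activator rose. Without OE Zscan4 replicate 2 the rises numbered 8, without OE Zscan4 replicate 1 they numbered 12, and without OE control replicate 1 and replicate 2 they numbered 25 and 15. Falls numbered 3 without either OE Zscan4 library, 5 without OE control replicate 1 and 8 without OE control replicate 2. The rises of Psma6, Psmb4, Psmb5, Psmc1, Psmc4, Psmd6, Psmd8 and Psmg1 held whichever library was left out and in every other alternative.

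The base ATPases had the highest median of the larger roles in the overexpression, 0.30, with 4 of 6 rising. Psmc4, one of the ATPases of the ring that unfolds substrates (chromosome 7, 28041707 to 28050101), had 5153 and 4956 in OE Zscan4, against 3585 and 3354 in OE control (log2 fold change 0.54, SE 0.066, adjusted p by limma = 4.3e-06). This was the largest rise of the 45 genes in this comparison, with both OE Zscan4 libraries far above both controls. Psmc1, an ATPase whose tail helps to open the gate of the core in yeast (chromosome 12, 100110154 to 100123405), had 6055 and 5921 in OE Zscan4, against 5040.5 and 4328 in OE control (log2 fold change 0.36, SE 0.074, adjusted p by limma = 7.5e-04). Psmc2 and Psmc3 also rose, at 0.32 and 0.27, and Psmc6 (0.12) and Psmc5 (0.031) did not pass. Psmc5 lies on chromosome 11, and after centring it passed at 0.38 (limma adjusted p = 2.7e-04). None of the other base subunits, Psmd1, Psmd2 and Psmd4, passed, with log2 fold changes of 0.14, 0.13 and 0.0086.

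In the lid, Psmd6, Psmd7, Psmd8 and Psmd13 rose in the overexpression. Psmd6, a structural subunit of the lid (chromosome 14, 14112174 to 14120984), had 4619.6 and 4685 in OE Zscan4, against 3407 and 3032 in OE control (log2 fold change 0.53, SE 0.07, adjusted p by limma = 9.4e-06). Its groups were far apart, and Psmd8 followed at 0.31 (adjusted p = 0.0017), Psmd7 at 0.25 (adjusted p = 0.0059) and Psmd13 at 0.23 (adjusted p = 0.0089). Psmd3, a structural subunit of the lid (chromosome 11, 98682554 to 98695979), had 6259 and 6246 in OE Zscan4, against 7104 and 6881 in OE control (log2 fold change -0.16, SE 0.064, adjusted p by limma = 0.0497), a fall close to the threshold. That call was lost without OE Zscan4 replicate 1 at -0.16 (adjusted p = 0.269), without OE Zscan4 replicate 2 at -0.16 (adjusted p = 0.276), without OE control replicate 1 at -0.14 (adjusted p = 0.0754) and in DESeq2 at -0.16 (adjusted p = 0.0532), and after centring Psmd3 rose, at 0.18 (limma adjusted p = 0.0205). Neither of the lid genes that fell in the knockdown passed here in the values as deposited. Psmd11 had 3451 and 3678 in OE Zscan4, against 3893 and 3688 in OE control (log2 fold change -0.089), and after centring on its chromosome, 11, it rose at 0.26 (limma adjusted p = 0.0044). Psmd14 had 2603 and 2487 in OE Zscan4, against 2438 and 2359.8 in OE control (log2 fold change 0.085).

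All 7 alpha subunits had positive log2 fold changes in the overexpression, from 0.12 to 0.41, and Psma2, Psma5, Psma6 and Psma7 passed. Psma6 (chromosome 12, 55384222 to 55418454) had 6023 and 6216 in OE Zscan4, against 4745 and 4461 in OE control (log2 fold change 0.41, SE 0.066, adjusted p by limma = 7.2e-05). Both OE Zscan4 libraries of this alpha subunit were above both controls. Psma8, the germ cell counterpart of Psma7, had 510.3 and 527 in OE Zscan4, against 412 and 445 in OE control (log2 fold change 0.28, SE 0.093, adjusted p by limma = 0.022), a rise that was lost without OE control replicate 1 at 0.22 (adjusted p = 0.0732), without OE Zscan4 replicate 1 at 0.30 (adjusted p = 0.0834), without OE Zscan4 replicate 2 at 0.25 (adjusted p = 0.148), in DESeq2 at 0.28 (adjusted p = 0.116) and after centring at 0.18 (adjusted p = 0.119).

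The beta ring split by chromosome in the overexpression. Psmb2, Psmb4, Psmb5 and Psmb7 rose, and Psmb3 and Psmb6, which lie on chromosome 11, fell. Psmb5 (chromosome 14, 54614119 to 54618022) had 5482 and 5628 in OE Zscan4, against 4499.8 and 4010.0 in OE control (log2 fold change 0.39, SE 0.07, adjusted p by limma = 2.3e-04), and all alternatives kept its call. Psmb6 (chromosome 11, 70525367 to 70527858) had 6094 and 6122 in OE Zscan4, against 7666 and 6877 in OE control (log2 fold change -0.25, SE 0.069, adjusted p by limma = 0.007). The caspase-like subunit thus moved against the chymotrypsin-like one in the deposited values, but after centring its log2 fold change was 0.097 (limma adjusted p = 0.24), and the call was lost without OE Zscan4 replicate 1 at -0.25 (adjusted p = 0.0955) and without OE Zscan4 replicate 2 at -0.25 (adjusted p = 0.0854). Psmb3 had 6479 and 6899.6 in OE Zscan4, against 8870.0 and 7431 in OE control (log2 fold change -0.28, SE 0.079, adjusted p by limma = 0.0077), which became 0.066 (limma adjusted p = 0.509) after centring and lost its call without OE Zscan4 replicate 1 at -0.23 (adjusted p = 0.136). Without OE control replicate 1 it was -0.15 (limma adjusted p = 0.0468). Psmb7, the trypsin-like subunit (chromosome 2, 38588036 to 38644087), had 5593 and 6054 in OE Zscan4, against 5471 and 4696 in OE control (log2 fold change 0.20, SE 0.076, adjusted p by limma = 0.0417). Its rise was lost without OE control replicate 2 at 0.089 (adjusted p = 0.283), without OE Zscan4 replicate 1 at 0.26 (adjusted p = 0.0852), without OE Zscan4 replicate 2 at 0.14 (adjusted p = 0.359), with TMM scaling at 0.18 (adjusted p = 0.05003), in DESeq2 at 0.20 (adjusted p = 0.0661) and after centring at 0.16 (limma adjusted p = 0.0942).

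All 4 activators had negative log2 fold changes in the overexpression, with a median of -0.23, and Psme2 and Psme4 fell. Psme4 had 4266 and 4206 in OE Zscan4, against 5105 and 5455 in OE control (log2 fold change -0.32, SE 0.066, adjusted p by limma = 7.8e-04). It lies on chromosome 11, whose genes had a median of -0.34, and its value after centring was 0.029 (limma adjusted p = 0.75). Psme2 had 774 and 716 in OE Zscan4, against 934 and 940.4 in OE control (log2 fold change -0.33, SE 0.08, adjusted p by limma = 0.0025). It lies on chromosome 14 and was the one gene that fell among the 35 members outside chromosomes 1 and 11. After centring its log2 fold change was -0.39 (limma adjusted p = 0.001), while without OE Zscan4 replicate 2 it was -0.28 (adjusted p = 0.0633). Its partner Psme1 had 1284 and 1301 in OE Zscan4, against 1554 and 1311 in OE control, a log2 fold change of -0.14 (adjusted p = 0.17), and Psme3 had -0.033, which after centring on chromosome 11 was 0.31 (limma adjusted p = 8.3e-04). The copy Psme2b of Psme2 lies on chromosome 11, and how far its reads were counted under Psme2 was not tested. Of the assembly factors, Psmg1, a chaperone of the alpha ring (chromosome 16, 95979933 to 95990960), had 1599 and 1756 in OE Zscan4, against 1387 and 1236 in OE control (log2 fold change 0.36, SE 0.078, adjusted p by limma = 0.0013). Psmd9 rose at 0.26 (adjusted p by limma = 0.047), a call lost in 7 of 12 alternatives, TMM scaling, edgeR, DESeq2 and centring among them. Psmf1 (-0.097) did not pass, and the other 5 assembly factors ranged from -0.18 to 0.13 without passing. Psmc3ip had 578 and 629 in OE Zscan4, against 799 and 772 in OE control (log2 fold change -0.38, SE 0.084, adjusted p by limma = 0.0014). Its centred value was -0.033 (limma adjusted p = 0.774), and it shares exon bases with Mlx on the other strand.

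**Figure D3:**
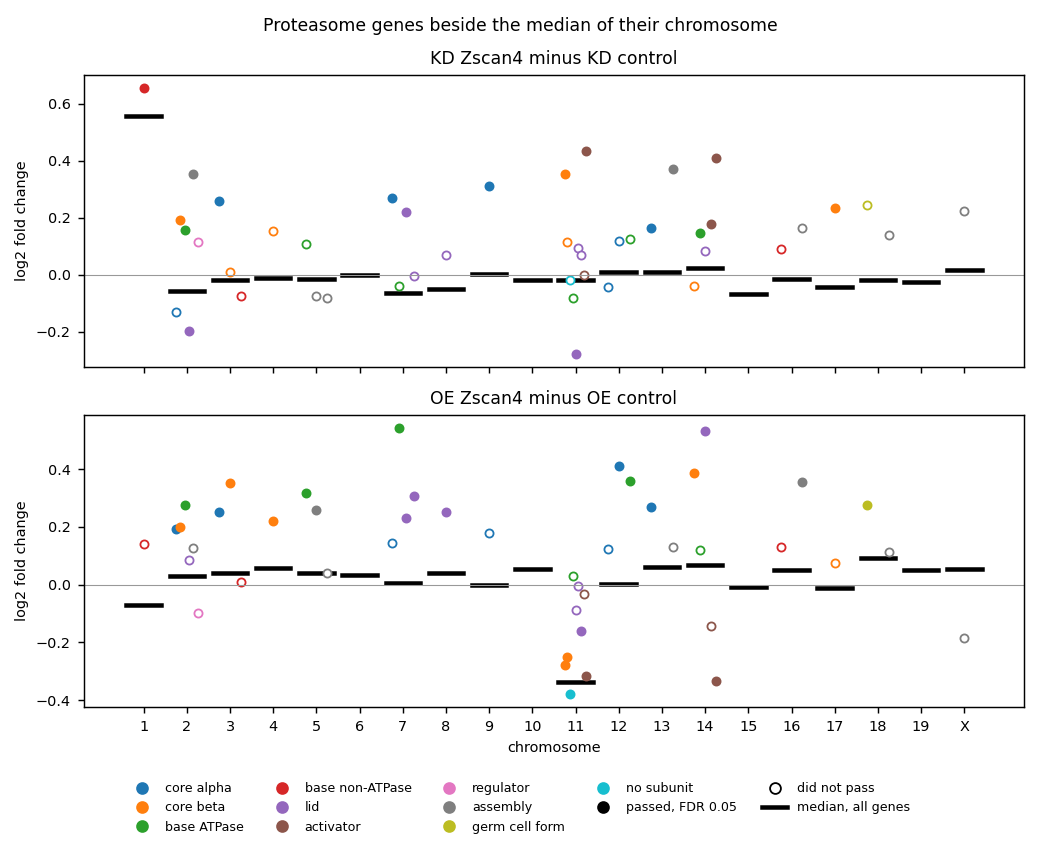
Points are the 45 genes by chromosome, coloured by role, with the log2 fold change on the y axis for KD Zscan4 minus KD control (top) and OE Zscan4 minus OE control (bottom). Bars, labelled all genes, are the medians of protein-coding genes of a chromosome with a mean value of at least 20. They are 0.56 for chromosome 1 in the top panel and -0.34 for chromosome 11 in the bottom panel. Filled points passed the test, and 5 of the 9 genes on chromosome 11 are filled below 0 in the bottom panel.

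Set out by chromosome, the overexpression calls fell into separate classes. Of the 9 genes on chromosome 11, none rose and 5 fell, with a median of -0.16, and of the 35 members outside chromosomes 1 and 11, 19 rose and 1 fell, with a median of 0.20. In the knockdown the same 9 genes had 2 rises and 1 fall, and the 35 had 13 rises and 1 fall. Among protein-coding genes of all chromosomes at or above the level of the lowest member, 35.0% rose and 21.8% fell in the overexpression. In the knockdown 20.8% of those genes rose and 26.9% fell. Of protein-coding genes on chromosome 11 with a mean value of at least 20, 18.9% had a positive log2 fold change in the overexpression. Shares of calls by chromosome were not computed for other genes. After centring on chromosome medians, 20 members rose and 1 fell in the overexpression and 16 rose and 1 fell in the knockdown. Of all genes 7741 of 18292 then passed in the overexpression and 5959 of 17938 in the knockdown. Of the chromosome 11 members, Psmc5, Psmd3, Psmd11, Psmd12 and Psme3 then rose, at 0.38, 0.18, 0.26, 0.34 and 0.31, and Psmb3, Psmb6, Psme4 and Psmc3ip did not pass. Since the OE control libraries carried the higher share of chromosome 11 reads, the effect of Zscan4c on these 9 genes and the shift of the chromosome cannot be told apart.

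The 250 bases before the start of 4 of these genes are printed 5′ to 3′ on the strand of the gene, from RefSeq with build GRCm38.p6. They show the chymotrypsin-like and caspase-like subunits, which moved apart in the overexpression, and the pair with the largest rises there. Capitals mark TGACNNNGC, the core of the antioxidant response element that Nfe2l1 and its relatives bind, searched on both strands.
Psmb5 (chr14:54617996-54618245, minus strand): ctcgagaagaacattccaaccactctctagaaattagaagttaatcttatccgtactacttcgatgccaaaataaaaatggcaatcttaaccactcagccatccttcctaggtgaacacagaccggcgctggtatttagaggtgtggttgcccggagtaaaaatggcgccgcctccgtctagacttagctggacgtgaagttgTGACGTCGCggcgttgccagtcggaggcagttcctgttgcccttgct
Psmb6 (chr11:70525107-70525356, plus strand): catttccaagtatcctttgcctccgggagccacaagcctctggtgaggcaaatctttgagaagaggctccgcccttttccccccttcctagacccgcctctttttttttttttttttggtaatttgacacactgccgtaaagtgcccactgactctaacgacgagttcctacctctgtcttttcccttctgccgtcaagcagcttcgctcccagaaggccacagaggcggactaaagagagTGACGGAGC
Psmc4 (chr7:28050093-28050342, minus strand): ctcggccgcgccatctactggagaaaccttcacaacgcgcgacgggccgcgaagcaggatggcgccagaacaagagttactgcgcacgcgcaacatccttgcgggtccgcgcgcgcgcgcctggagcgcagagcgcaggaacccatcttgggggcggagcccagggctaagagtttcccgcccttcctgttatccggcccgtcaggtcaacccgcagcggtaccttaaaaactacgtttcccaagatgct
Psmd6 (chr14:14120946-14121195, minus strand): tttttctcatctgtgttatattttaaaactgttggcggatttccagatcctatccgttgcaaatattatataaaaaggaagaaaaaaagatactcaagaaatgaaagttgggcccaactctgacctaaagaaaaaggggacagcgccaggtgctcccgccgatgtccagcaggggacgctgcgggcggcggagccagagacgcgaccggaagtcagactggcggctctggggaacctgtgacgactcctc

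The motif starts 47 bases before the start in Psmb5 and 9 bases before it in Psmb6, and its letters are in neither of the other windows. A window was found for 34 of the 45 genes, 13 of which rose and 5 of which fell in the overexpression. TGACNNNGC was in 4 of these 34 promoters (11.8%), those of Psmb5, Psmb6, Psmc6 and Psmd12, beside 11.1% of 13813 protein-coding promoters of the same length. Of these, Psmb5 rose and Psmb6 fell in the overexpression, and Psmc6 and Psmd12 did not pass. The NF-Y box CCAAT was in 13 of 34 (38.2%), beside 36.6% of all, the E-box CACGTG in 2 (5.88%), beside 7.32%, and the cAMP response element TGACGTCA in 0, beside 2.29%. These shares lay near those of all promoters, and a match of letters is no proof of a bound site.

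The difference between the effects, the overexpression effect minus the knockdown effect, was tested over all 8 libraries in the 17409 genes of both arms. It was higher in the overexpression for 8 members (17.8%) and lower for 10 (22.2%), beside 22.9% and 21.8% of all genes, so these shares are close to the background. After centring on chromosome medians 10 members were higher and 7 lower. Leaving out 1 library gave 6 to 15 higher, the 15 without OE control replicate 1, and 6 to 10 lower, the 6 without OE Zscan4 replicate 1, OE control replicate 1, KD control replicate 2 or else KD Zscan4 replicate 1. Psmb3, Psme2 and Psme4 had opposite calls in the 2 comparisons, a rise in the knockdown and a fall in the overexpression. Their differences were -0.75, SE 0.083, adjusted p by limma = 2.7e-06 for Psme4, -0.74, SE 0.14, adjusted p by limma = 5.5e-04 for Psme2 and -0.63, SE 0.11, adjusted p by limma = 1.7e-04 for Psmb3, the 3 lowest of the members. These 3 differences passed in every alternative, although the falls of Psme4 and Psmb3 in the overexpression did not outlast centring. After centring the differences were -0.42 for Psme4, -0.78 for Psme2 and -0.30 for Psmb3, and Psmd10 (-0.44), Psme1 (-0.36), Psmd5 (-0.33) and Psmf1 (-0.31) then lay below Psmb3. Psmc4 had the highest difference (0.58, SE 0.078, adjusted p by limma = 1.8e-05), and Psmd6 followed (0.45, SE 0.086, adjusted p by limma = 5.1e-04). After centring that of Psmd11 was the highest at 0.52, ahead of Psmc4 at 0.49. Neither Psmc4 nor Psmd6 had passed in the knockdown. Psmc4 had 5703 and 5451 in KD Zscan4, against 5726 and 5742 in KD control, and Psmd6 had 3516 and 3589 in KD Zscan4, against 3434 and 3268 in KD control. The difference of Psmd1 (-0.52, SE 0.075, adjusted p by limma = 3.7e-05) became 0.084 after centring and no longer passed. No gene fell in both comparisons. Psma2, Psma5, Psmb7, Psmc3 and Psmd13 rose in both, but each lost a call when 1 library was left out, Psma5 in the overexpression and the other 4 in both comparisons. A further 10 passed in neither, namely Psma3, Psmc5, Psmd2, Psmd4, Psmd12, Psme3, Psmf1, Psmd10, Psmg2 and Psmg3.

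**Figure D4:**
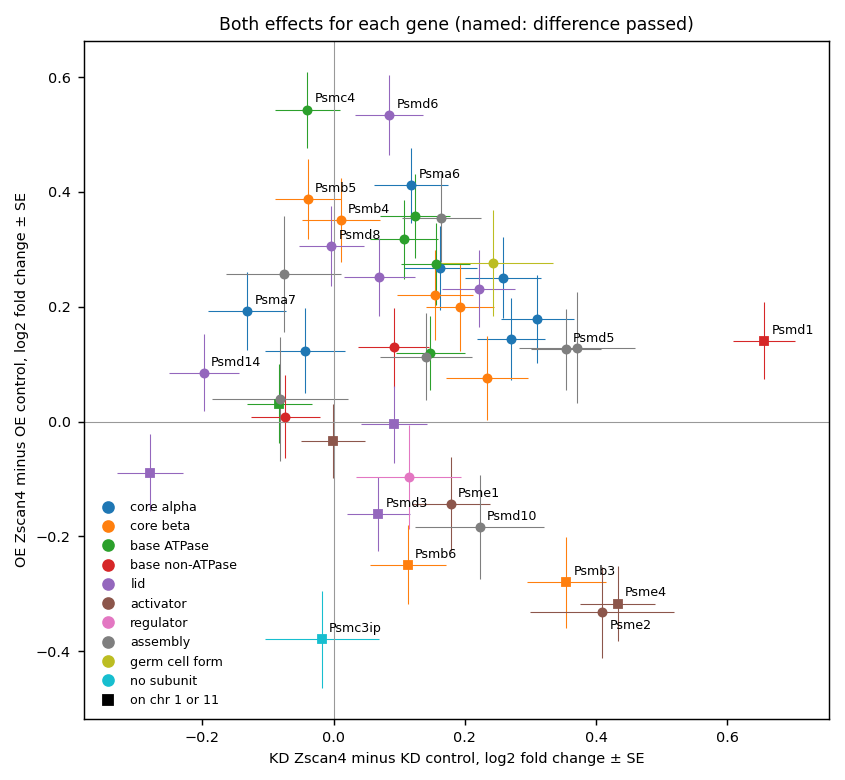
Each of the 45 genes by its log2 fold change in the knockdown (x axis) and in the overexpression (y axis), with SE bars and colour by role; squares mark chromosomes 1 and 11. Names are given where the difference between the effects passed. Psmb3, Psme2 and Psme4 lie at the lower right, Psmc4 and Psmd6 at the top, and Psmd1 at the far right.

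Libraries of one group differed in a shared direction across the members, which bears on the size of these changes. Replicate 1 was above replicate 2 in 41 of 45 genes in OE control, with a median log2 difference of 0.13, the same size as the median overexpression effect. Among protein-coding genes at or above the lowest member's level it was above in 61.5%. In KD Zscan4 replicate 1 was above in 38 of 45, with a median of 0.084, and in 57.6% of those genes. Replicate 1 was above in 13 of 45 in OE Zscan4 and in 24 of 45 in KD control, where the median difference was 0.0035. Without OE control replicate 1 the median overexpression effect was 0.19, and without OE control replicate 2 it was 0.089. The median knockdown effect was 0.096 without KD Zscan4 replicate 1 and 0.16 without KD Zscan4 replicate 2.

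As a share of all reads of a library, the 45 genes took 0.949% and 0.916% in KD Zscan4, against 0.863% and 0.863% in KD control, and 0.941% and 0.955% in OE Zscan4, against 0.974% and 0.930% in OE control. The share was higher in both KD Zscan4 libraries, while in the overexpression the groups overlapped. The 95% Wilson intervals, which cover counting error only, were 0.945% to 0.953% and 0.912% to 0.920% in KD Zscan4, against 0.859% to 0.867% and 0.859% to 0.867% in KD control. Without the members on chromosomes 1 and 11 the shares were 0.685% and 0.655% in KD Zscan4, against 0.630% and 0.628% in KD control. They were 0.689% and 0.702% in OE Zscan4, against 0.672% and 0.634% in OE control. Both Zscan4 libraries were then the higher ones in each arm. These are still shares of all reads of a library, chromosomes 1 and 11 included, so the shift of these chromosomes enters them. Shares of the reads outside these chromosomes were not computed. With 2 libraries against 2 an exact permutation test cannot reach the threshold, and none was run on these shares.

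**Figure D5:**
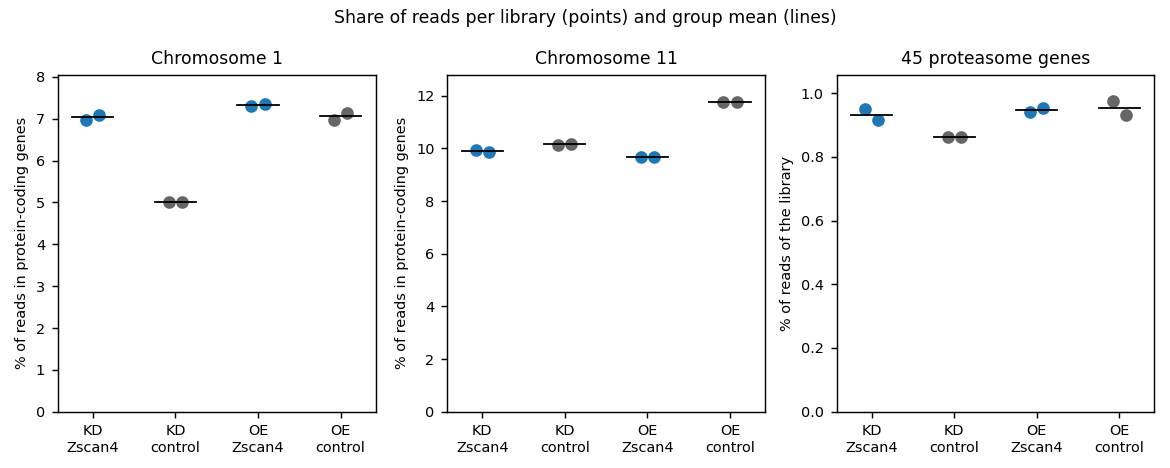
Points are libraries and lines are group means (n = 2), for the share of protein-coding reads on chromosome 1 (left) and chromosome 11 (middle) and the share of all reads in the 45 genes (right), in percent from 0. KD control is the low group on chromosome 1 at 5.01%, OE control is the high group on chromosome 11 at 11.75%, and KD control is the low group of the right panel at 0.863%.

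Levels of different genes were compared per kilobase of the transcript with the longest coding sequence, as normalised reads per kb averaged over the 2 libraries of a group. Core subunits led. Psmb3 had 7748 per kb in KD Zscan4, against 6049 in KD control, and 8733 in OE Zscan4, against 10640.2 in OE control. Psmb6 was close to it, with 7729.6 in KD Zscan4, against 7136 in KD control, and 7654 in OE Zscan4, against 9112 in OE control. Subunits of one ring, which the particle holds in equal number, differed in this level per kb of whole transcript. Between the lowest and highest, the alpha ring spanned 3.58 to 4.03 times, depending on the group. The beta ring spanned 2.62 to 3.37 times and the ATPases 1.82 to 2.84 times. These spans and ranks depend on the length used. The transcript of Psma3 has 2846 bases, 765 of them coding, and that of Psma6 has 1042, 738 of them coding. Those of Psmb1 and Psmd11 have 1758 and 2848 bases, 720 and 1266 of them coding. Levels per kb of coding sequence were not compared, and the part of transcript length in these spans was not tested. The lowest alpha subunit was Psma3 in each group (1254 per kb in KD Zscan4, against 1292 in KD control, and 1578 in OE Zscan4, against 1453 in OE control), and Psmb1 was the lowest beta subunit. In the lid, Psmd7 was highest (4528 per kb in KD Zscan4, against 4314 in KD control) and Psmd11 lowest (1183 in KD Zscan4, against 1436 in KD control). Psmb3 and Psmb6 in KD Zscan4 differed by less than the spread of their libraries, since Psmb3 had 8229.6 and 7266 per kb there and Psmb6 had 8148 and 7312.

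Most activators and assembly factors had lower levels than the core subunits. Psme3 had 2179.9 per kb in KD Zscan4, against 2183 in KD control, and 2151 in OE Zscan4, against 2201 in OE control, while Psme4 had 594 in KD Zscan4, against 439 in KD control, and 653 in OE Zscan4, against 813 in OE control. Psme3, the nuclear activator, was thus the main activator transcript in all 4 groups, ahead of Psme1 and Psme2. Per kb of whole transcript Psmf1 was the lowest member, with 3809 bases of which 813 are coding. It had 159 per kb in KD Zscan4, against 147 in KD control, and 141 in OE Zscan4, against 151 in OE control. Psma8 was measured at 218 per kb in KD Zscan4, against 184 in KD control, and 307 in OE Zscan4, against 253 in OE control, far under Psma7, the subunit it replaces, at 4658 in KD Zscan4, against 5095 in KD control, and 5179.7 in OE Zscan4, against 4536 in OE control. Exon bases were shared with another measured gene in 9 members, among them Psmb5 with Mir686, Psmb7 with Nek6 and Psmd13 with Sirt3. Whether counting used the strand is not given in the sources used here, so reads of such pairs may not be told apart.

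Genes that work with the proteasome but lie outside the naming rule were counted for comparison, 37 in all. Among all protein-coding genes at or above the level of the lowest member, 20.8% rose and 26.9% fell in the knockdown, with a median of -0.026. In the overexpression 35.0% of those genes rose and 21.8% fell, with a median of 0.076. Of the 37, 6 rose (16.2%) and 12 fell (32.4%) in the knockdown, beside 17.2% and 18.5% of all genes, with a median of -0.038. In the overexpression 16 of the 37 rose (43.2%) and 5 fell (13.5%), beside 22.3% and 22.1% of all genes, with a median of 0.15. Of these calls, 6 of 18 in the knockdown held in every alternative, all of them falls (among them Mafg, Nfe2l2, Nploc4, Ube3c and Ubqln2), and 12 of 21 in the overexpression did, among them those of Adrm1, Ddi2, Maff, Nfe2l1, Nfe2l3, Rad23b, Ubqln1, Ubqln2, Ubqln4, Usp14 and Zfand2a. Immunoproteasome subunits replace catalytic beta subunits in cells exposed to interferon. Psmb10 had 911 and 993 in OE Zscan4, against 798 and 676 in OE control (log2 fold change 0.37, SE 0.09, adjusted p by limma = 0.0026), which did not pass without OE Zscan4 replicate 2 (0.31, adjusted p = 0.0534). In the knockdown Psmb10 did not pass (0.12). Psmb9 was low, at 62.9 and 62.1 in KD Zscan4, against 60.9 and 38.2 in KD control, and 38.3 and 41.3 in OE Zscan4, against 51.5 and 60.8 in OE control, and passed in neither comparison. Psmb8 was not analysed here.

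Of 8 subunits and partners without a Psm symbol, 2 rose (25%) and 1 fell (12.5%) in the knockdown, and 4 rose (50%) and none fell in the overexpression. Of protein-coding genes at or above the level of the lowest member, 20.8% rose and 26.9% fell in the knockdown. In the overexpression 35.0% of those genes rose and 21.8% fell. Adrm1, a ubiquitin receptor of the base, had 3971 and 3948 in OE Zscan4, against 3214 and 3012 in OE control (log2 fold change 0.35, SE 0.066, adjusted p by limma = 3.6e-04), and did not pass in the knockdown (0.048). Usp14, a deubiquitinase that trims chains at the base, rose in the overexpression (0.35, adjusted p = 4.9e-04), and so did Pomp, the maturation factor of the core (0.17, adjusted p = 0.0496), and Akirin2, which carries proteasomes into the nucleus in human cells (0.22, adjusted p = 0.02). The call of Pomp was lost in 9 of 12 alternatives, TMM scaling, edgeR, DESeq2 and centring among them, and that of Akirin2 in 4, namely DESeq2, centring and without either OE Zscan4 library. Sem1, the smallest lid subunit, passed in neither comparison (0.088 in the knockdown and -0.007 in the overexpression). Uchl5, a deubiquitinase bound to Adrm1, had 1914 and 2058 in KD Zscan4, against 1369 and 1316 in KD control (log2 fold change 0.56, SE 0.061, adjusted p by limma = 2.4e-05). It lies on chromosome 1, whose median was 0.56, and after centring its log2 fold change was 0.013 (limma adjusted p = 0.891). Ube3c, a ubiquitin ligase that acts at the proteasome, had 2614 and 2603 in KD Zscan4, against 3548 and 3509.6 in KD control (log2 fold change -0.44, SE 0.051, adjusted p by limma = 4.2e-05), and Ecpas, an adaptor of the complex, rose at 0.20 (adjusted p = 0.0321), a call lost in DESeq2 and without either KD control library or KD Zscan4 replicate 1.

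Factors that bring substrates to the proteasome fell in 7 of 12 cases in the knockdown, with no rise, and rose in 8 of 12 cases in the overexpression, with no fall. Medians were -0.20 in the knockdown and 0.25 in the overexpression. Of protein-coding genes at or above the level of the lowest member, 26.9% fell in the knockdown and 35.0% rose in the overexpression. Ubqln2, a shuttle that binds ubiquitin chains and the base, had 1100.0 and 1142 in KD Zscan4, against 1444 and 1357 in KD control (log2 fold change -0.32, SE 0.063, adjusted p by limma = 0.0019), and 947 and 983 in OE Zscan4, against 548 and 626 in OE control (log2 fold change 0.72, SE 0.086, adjusted p by limma = 3.5e-06). Both Zscan4 libraries were below the controls in the first comparison and above them in the second. Ubqln4 had the same order, with -0.25 in the knockdown and 0.35 in the overexpression. Nploc4, a partner of the unfolding ATPase Vcp, fell in the knockdown at -0.34 (adjusted p = 6.5e-04), as did Faf2 at -0.26 (adjusted p = 0.0062). Without KD control replicate 2 the falls of Ubqln4 (-0.19, adjusted p = 0.074) and Faf2 (-0.23, adjusted p = 0.0635) did not pass. Zfand2a, which arsenite and heat induce, had 366 and 370.2 in OE Zscan4, against 181 and 170.0 in OE control (log2 fold change 1.06, SE 0.11, adjusted p by limma = 9.8e-07), and Rad23b, another shuttle, had 10418 and 10415 in OE Zscan4, against 7834 and 7682 in OE control (0.43). Vcp itself passed in neither comparison (-0.067 and 0.063).

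Of 9 regulators of subunit transcription, 2 rose and 2 fell in the knockdown, beside 17.2% and 18.5% of all genes, and 1 rose and 4 fell in the overexpression, beside 22.3% and 22.1%. Nfe2l1 had 3359.7 and 3345 in OE Zscan4, against 5057 and 4763 in OE control (log2 fold change -0.55, SE 0.065, adjusted p by limma = 3.2e-06), and 3559 and 3464 in KD Zscan4, against 3183 and 3431 in KD control, where it did not pass (0.087). It lies on chromosome 11, whose median was -0.34 in the overexpression, and after centring its log2 fold change there was -0.20 (limma adjusted p = 0.0138). Ddi2, the protease that activates Nfe2l1, had 1568 and 1556 in OE Zscan4, against 1003 and 1053 in OE control (log2 fold change 0.60, SE 0.072, adjusted p by limma = 3.4e-06). Nfe2l3, a relative of Nfe2l1, was low, with 38.6 and 35.9 in KD Zscan4, against 19.7 and 20.2 in KD control (log2 fold change 0.87, SE 0.28, adjusted p by limma = 0.031), a rise that was lost when any one of the 4 libraries was left out (adjusted p = 0.0687 to 0.11), and 62.7 and 67.6 in OE Zscan4, against 136 and 123 in OE control (log2 fold change -0.98, SE 0.18, adjusted p by limma = 2.4e-04). Maff, a small partner of these factors, had the same signs, 0.35 (adjusted p = 0.0364) in the knockdown and -0.87 (adjusted p = 4.0e-06) in the overexpression. Mafg fell in the knockdown (-0.45, adjusted p = 1.3e-04), as did Nfe2l2 (-0.31, adjusted p = 0.0018), and Mafk fell in the overexpression (-0.53, adjusted p = 0.006). The rise of Maff was lost in DESeq2 and without KD control replicate 1 (0.23) or KD Zscan4 replicate 1 (0.31), and the fall of Mafk in DESeq2 and without OE Zscan4 replicate 2 (-0.43). Among ubiquitin genes, Ubb, a polyubiquitin gene on chromosome 11, passed in neither (0.039 and 0.15), but rose in the overexpression after centring (0.50, adjusted p = 5.3e-05). Uba1, the main ubiquitin-activating enzyme, had -0.14 (adjusted p = 0.0458) in the knockdown and 0.21 (adjusted p = 0.0164) in the overexpression. Rps27a, a fusion of ubiquitin with a ribosomal protein, rose in the knockdown (0.20, adjusted p = 0.023), and Uba6, a second activating enzyme, rose in the knockdown (0.36, adjusted p = 0.0393). The knockdown calls of Uba1, Uba6 and Rps27a were lost when either KD control library was left out (Uba1 was -0.096 without replicate 2), that of Uba6 also without KD Zscan4 replicate 2 (0.13, adjusted p = 0.385) and that of Rps27a without KD Zscan4 replicate 1 (0.11, adjusted p = 0.0519), and the overexpression call of Uba1 when either OE Zscan4 library was. These values are log2 fold changes from limma.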

How the data were processed

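Per the submitters' processing notes, reads were handled with cutadapt, HISAT2, featureCounts and DESeq2 on mm10, with no versions named. The authors deposited a gene table per arm of signal values, which are whole reads divided by one size factor per library (100% of values whole within 0.01 after scaling back). The repeat tables were not used. Genes were named with GENCODE M21 (99.86% and 99.82% of IDs matched). Each arm was fitted on its own with limma 3.58.1 (R 4.3.3) on log2(value + 1), two-sided, 2 against 2 libraries, with Benjamini-Hochberg adjustment over all genes of the table and a false discovery rate of 0.05, and was tested on simulated data. This scale understates changes of low genes. Alternatives were TMM scaling, a pseudocount of 5, a mean of at least 10, edgeR 4.0.16 and DESeq2 1.42.0 on recovered reads, each library left out, a replicate block, one fit of all 8 libraries and centring on chromosome medians. Genes with values in every library were the 6 largest rises and falls that passed, the catalytic, germ cell and oppositely called members, the 6 largest differences, 8 related genes and up to 4 passing genes per related list. Further genes given were chosen after their values were seen. Members and lists were chosen with earlier results of these data known. Libraries were amplified for 11 PCR cycles without stated molecular identifiers, so intervals cover counting error only. Results of some genes that enter the counts are not reported here.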

Additional observations from a re-analysis of the deposited data

How the results depend on the processing

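DESeq2 called 4141 genes in the knockdown, against 6403 with limma, and the cause was not tested. Centring on chromosome medians left 1 member that fell in the knockdown and 1 in the overexpression, against 2 and 6, and turned the log2 fold changes of Psmb3 to 0.066, Psmb6 to 0.097, Psmd3 to 0.18 and Psme4 to 0.029 in the overexpression and the difference of Psmd1 to 0.084; subtracting a median of -0.34 or 0.56 does this by construction. Leaving out 1 library gave 4416 to 6087 called genes in the knockdown, 5964 to 7975 in the overexpression and 6619 to 7397 for the difference. Members that rose numbered 9 to 20 and 8 to 25, members that fell 1 to 3 and 3 to 8, and members whose difference was higher or lower 6 to 15 and 6 to 10. Medians ranged over 0.096 to 0.16 in the knockdown and 0.089 to 0.19 in the overexpression. Of the values of single named genes under alternatives, 353 stayed on their side of the threshold with no called value changing sign, 29 no longer passed, 3 newly passed and 5 reversed. Replicate numbers did not pair the libraries (correlations of same-numbered deviations -0.059 and -0.039). With the replicate number as a block, 6924 genes passed in the knockdown, with 16 members that rose and 2 that fell, 8188 in the overexpression, with 19 and 5, and 7388 for the difference, with 8 and 9. Under the block Psmc6 lost its rise in the knockdown, Psmd3 its fall in the overexpression (-0.16, limma adjusted p = 0.0996) and Psmd5 its difference, and no other call of a member was lost. The median differences between replicates, up to 0.13, are as large as the median effects.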

Other observations

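Heat-shock genes were looked at because Zfand2a had the largest change among the genes around the proteasome, so this list of 22 genes was chosen after values were seen. Among protein-coding genes at or above the level of the lowest proteasome member, 35.0% rose and 21.8% fell in the overexpression. In the knockdown 20.8% of those genes rose and 26.9% fell. Of the heat-shock list, 12 rose and 4 fell in the overexpression, with a median log2 fold change of 0.21, where 22.3% of all genes rose and 22.1% fell. In the knockdown 7 of the list rose and 6 fell, with a median of 0.051, where 17.2% of all genes rose and 18.5% fell. Of these knockdown calls, 1 of the 7 rises, that of Hspa5, and 4 of the 6 falls held in every alternative. In the overexpression 7 of the 12 rises and 3 of the 4 falls did. The knockdown rises include Hspd1 and Hspe1 on chromosome 1, whose median was 0.56, and after centring Hspd1 had -0.25 (limma adjusted p = 0.0019) and Hspe1 0.089 (limma adjusted p = 0.23). Hsph1, a nucleotide exchange factor of Hsp70, had 4506 and 4451 in OE Zscan4, against 1981 and 1935 in OE control (log2 fold change 1.19, SE 0.065, adjusted p by limma = 2.8e-10), and 4007 and 3920.5 in KD Zscan4, against 4346 and 4655 in KD control (log2 fold change -0.18, SE 0.053, adjusted p by limma = 0.0184), a fall that was lost without KD control replicate 2 (-0.13, adjusted p = 0.23). Hspb1, a small heat-shock protein, had 7587 and 7871 in OE Zscan4, against 4861 and 4559 in OE control (log2 fold change 0.71, SE 0.066, adjusted p by limma = 1.9e-07), and 9492 and 8926 in KD Zscan4, against 14492 and 14837 in KD control (log2 fold change -0.67, SE 0.05, adjusted p by limma = 1.2e-06). Both genes were higher in both OE Zscan4 libraries and lower in both KD Zscan4 libraries than in the controls of their arm. Hspd1 of the mitochondria (0.78, adjusted p = 1.9e-07) and the cochaperones Dnaja1 (0.70, adjusted p = 4.0e-07) and Chordc1 (0.65, adjusted p = 1.6e-06) also rose in the overexpression. The inducible Hsp70 genes went the other way: Hspa1a had 99.9 and 117 in OE Zscan4, against 198 and 195 in OE control (log2 fold change -0.85, SE 0.15, adjusted p by limma = 1.5e-04), and Hspa1b, a near-identical neighbour that may share its reads, had -0.35 (adjusted p = 0.0156), which did not pass without OE control replicate 1 or OE Zscan4 replicate 1. Both fell in the knockdown too, at -1.37 (adjusted p = 1.5e-04) and -0.67 (adjusted p = 0.0018). Hspa4l fell in the overexpression (-1.02, adjusted p = 4.4e-06), and so did Sqstm1 (-0.77, adjusted p = 1.6e-07), a receptor that hands ubiquitinated proteins to autophagy and lies on chromosome 11, whose median was -0.34 (after centring -0.42, adjusted p = 1.5e-04). Values in brackets without a name are log2 fold changes from limma.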
